A study of Schizosaccharomyces pombe with 72 samples.

Results

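Annotated long non-coding RNA genes of fission yeast (Schizosaccharomyces pombe) were followed here across mutants of chromatin remodelers and of the elongation regulator Prf1. They were chosen by their measured level, as sense entries whose identifier begins with SPNCRNA and whose mean was at least 1 CPM (estimated counts scaled to a common library total) over the 3 wt-expB libraries or over the libraries of any mutant group. Of 1528 SPNCRNA sense entries, among 6997 sense entries and 13994 entries in all, 1378 met this rule. The level in wt-expB passed 1032 of them, and 346 passed only through a mutant group. The rule used measured levels, so a member that passed only through a mutant group had to be higher there than in wt-expB. Counts are therefore also given for members that passed in wt-expB, whose choice in turn favoured a high level in WT of B. The members nearest the threshold were SPNCRNA.201 at 1.003, SPNCRNA.446 at 1.0097 and SPNCRNA.94 at 1.0345 CPM in their highest group, and the nearest entries outside it were SPNCRNA.124 at 0.9934, SPNCRNA.558 at 0.9797 and SPNCRNA.467 at 0.9714 CPM.

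Long non-coding RNAs are made by RNA polymerase II like mRNAs but are not translated into a protein, and in fission yeast many of them are held at a low level by nuclear RNA decay. A large part of the annotated set lies on the strand opposite a coding gene, and some run into a gene on the same strand and repress it when they are transcribed, as at the phosphate-responsive genes. CHD remodelers, the family of Hrp1 and Hrp3, space nucleosomes over transcribed genes.

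In all, 72 strand-specific libraries of polyadenylated RNA from cells in mid-log growth in rich medium at 32 ºC formed 24 groups of 3. Every strain was h+ ade6-M216 ura4-D18 leu1-32, and each genotype was represented by 1 strain. Experiment A held single deletions of 11 remodeler genes. In batch 1 (A-b1) these were kanMX deletions of fft2, fft3, hrp1, hrp3, mit1, rrp1, rrp2, irc20 and swr1, and in batch 2 (A-b2) hygMX deletions of fft1 and snf22. Experiment B held hrp1del::kanMX, hrp3del::kanMX and the double mutant hrp1del::kanMX hrp3del. Experiment C held the exchange of C-terminal domains, labelled hrp3-CT(hrp1) (hrp1del::kanMX hrp3del::hrp3-CT(hrp1)) and hrp1-CT(hrp3) (hrp1del::hrp1-CT(hrp3) hrp3del). Experiment D held hrp1Δhrp3Δ, prf1del and the triple mutant. The same WT strain was grown in each experiment and batch, and each mutant was set against WT libraries of its experiment or batch. The study calls its mRNA-seq replicates biological, but the labels do not say whether they came from separate cultures, so p-values measure the spread between these libraries. All mutants of a batch or experiment share their WT libraries. In such bulk RNA, fewer cells that make a transcript and less of it per cell cannot be told apart.

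Some libraries went against their labels or stood apart. Levels of the supposedly deleted gene averaged at or above WT in A-b1 libraries labelled fft2Δ, rrp1Δ and hrp3Δ (fft2 at 33.0 to 69.5 CPM against 24.8 to 28.2 in WT, hrp3 at 21.2 to 38.3 CPM against 21.3 to 25.7 in WT). Antisense entries of coding genes took 2.40% ± 0.10 (SD) of counts in those labelled hrp3Δ, against 1.00% ± 0.06 in WT. In hrp3Δ of B they took 2.13% ± 0.13, against 1.06% ± 0.08 in WT. Whether the A-b1 libraries lack hrp3 was not tested. In C, the hrp3-CT(hrp1) label names a deletion of hrp1, but hrp1 had 58.71, 117.4 and 85.2 CPM there. The hrp1-CT(hrp3) label names a deletion of hrp3, but hrp3 had 82.03, 85.14 and 83.1 CPM, against 63.26, 56.75 and 66.8 CPM in WT of C. The gene each label keeps was the lower one, with hrp1 at 39.31, 50.36 and 42.4 CPM in the hrp1-CT(hrp3)-labelled libraries, against 96.87, 87.81 and 86.55 CPM in WT, and hrp3 at 50.43, 37.4 and 39.25 CPM in those labelled hrp3-CT(hrp1). Each label also names a chimera with the C-terminus of the gene it deletes, whose reads may count on that gene's entry. How far such reads raised these levels was not tested. With that limit, the levels of both genes run against both labels of C. Whether the labels are exchanged was not tested, and every direction given for C rests on them. In D, hrp1 had 64.58, 0 and 31.61 CPM in the libraries labelled hrp1Δhrp3Δprf1Δ. Library totals ran from 3657 to 38590464 counts. In D, replicate 3 of WT, replicate 1 of hrp1Δhrp3Δ and replicate 2 of the triple mutant (3657 counts) correlated with their group mates over coding entries at Spearman's rho of 0.2018 to 0.7221, and edgeR's estimate of the variation between replicates (BCV) reached 0.6492 in D, against 0.0742 to 0.1845 elsewhere. Counts of D are therefore also given without these 3 libraries, an alternative chosen after seeing the data. Markers of the h+ and h- mating types (2 and 4 genes) summed to at most 18.6 and 38.8 CPM in any library.

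Members were 75 to 5317 bases long with a median of 1122, against 371 for the 150 entries that did not pass. Their names were matched to the RefSeq annotation of a later assembly for 1316 members, of which 1299 were typed as lncRNA, 11 as ncRNA, 5 as snoRNA and 1 as snRNA. By this annotation 828 members (738 and a further 90 that also lie on the same strand as a coding gene) overlapped a coding gene on the other strand. Of the rest, 93 overlapped a coding gene on the same strand only, 140 another noncoding gene only and 255 no annotated gene, and 62 had no match and so no position. The rule did not use position. Members opposite a coding gene had a median of 4.413 CPM in wt-expB, which was 2.941 CPM per kb, and those over no gene 2.237 CPM, which was 3.414 CPM per kb. The order of the 2 classes thus depended on whether length was divided out.

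A single RNA took the largest share of counts. SPNCRNA.53 (prl53), a prl entry (polyadenylated RNA without a long reading frame), had 2091, 2527 and 1714 CPM in wt-expB and took 16.5% of all SPNCRNA counts there. At 1140 CPM per kb it stood above SPNCRNA.03 (prl3) at 326.9 and SPNCRNA.1094 at 278.1 CPM per kb. SPNCRNA.445 (snoR61, a small nucleolar RNA) had 206.2, SPNCRNA.1095 202.8, SPNCRNA.112 164.5, SPNCRNA.74 126.6, SPNCRNA.510 119.0, SPNCRNA.863 114.4 and SPNCRNA.1696 (annotated as nam3) 83.9 CPM per kb. Replicate 3 was the lowest of the wt-expB libraries for all of these RNAs but SPNCRNA.74, which had 85.3, 104.8 and 107.4 CPM. In SPNCRNA.53, 2683, 2727 and 2660 CPM in hrp3Δ of B lay above the 3 wt-expB values, yet the fitted log2 fold change was 0.08 ± 0.10 (SE, edgeR adjusted p = 0.538), because fitted changes are relative to scaling factors (TMM) and CPM values are not.

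Over the 19 comparisons with WT, 1271 members passed the filter on low counts in at least 1 comparison and 788 in all, while 107 were tested in none. Of the tested members, 723 were called higher in at least 1 comparison, 526 were called lower in at least 1, 269 did both in different mutants and 291 were called in none. Of the 1032 that passed in wt-expB, all tested, 571 were called higher in at least 1, 498 lower in at least 1, 251 did both and 214 were called in none. Calls were made at 0.05 on edgeR quasi-likelihood p-values, adjusted by Benjamini-Hochberg across every entry of a fit. Because the rule took levels from these same libraries, the counts that follow describe the members and are set beside the share of all entries called.

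In experiment B the number of members that rose was larger in the groups labelled as deleted for hrp3 than in hrp1Δ, in counts that were not compared by a test. Of 1172 members tested, 357 rose and 174 fell in hrp1Δhrp3Δ (all entries 29.0% higher and 24.6% lower), 252 rose and 143 fell in hrp3Δ (21.6% and 17.9%), and 130 rose and 41 fell in hrp1Δ (7.06% and 4.43%). The members' shares were 30.5% and 14.8% in hrp1Δhrp3Δ, 21.5% and 12.2% in hrp3Δ, and 11.1% and 3.50% in hrp1Δ, with those passed only through a mutant group included. Among the 1028 tested members that had passed in wt-expB, 276 rose and 174 fell in the double mutant (26.8% and 16.9%), 194 and 143 in hrp3Δ (18.9% and 13.9%), and 111 and 41 in hrp1Δ (10.8% and 3.99%). With TMM factors from all entries, the share of these that rose was below that of all entries in the double mutant and hrp3Δ, and above it in hrp1Δ. The other rises, 81 in the double mutant, 58 in hrp3Δ and 19 in hrp1Δ, came from the 144 that had passed only through a mutant group. Between mutants, 207 members were higher and 202 lower in hrp3Δ than in hrp1Δ (all entries 18.2% and 16.0%), and 73 were higher and 33 lower in the double mutant than in hrp3Δ (6.23% and 3.57%), or 64 to 81 called in all with one library left out.

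Scaling mattered to these splits. With TMM factors from coding genes alone, the median of all entries moved up by 0.17 in hrp3Δ, 0.23 in hrp1Δhrp3Δ and 0.25 in the hrp1-CT(hrp3)-labelled libraries, and 316 members rose and 90 fell in hrp3Δ and 437 rose and 100 fell in the double mutant.

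**Figure D1:**
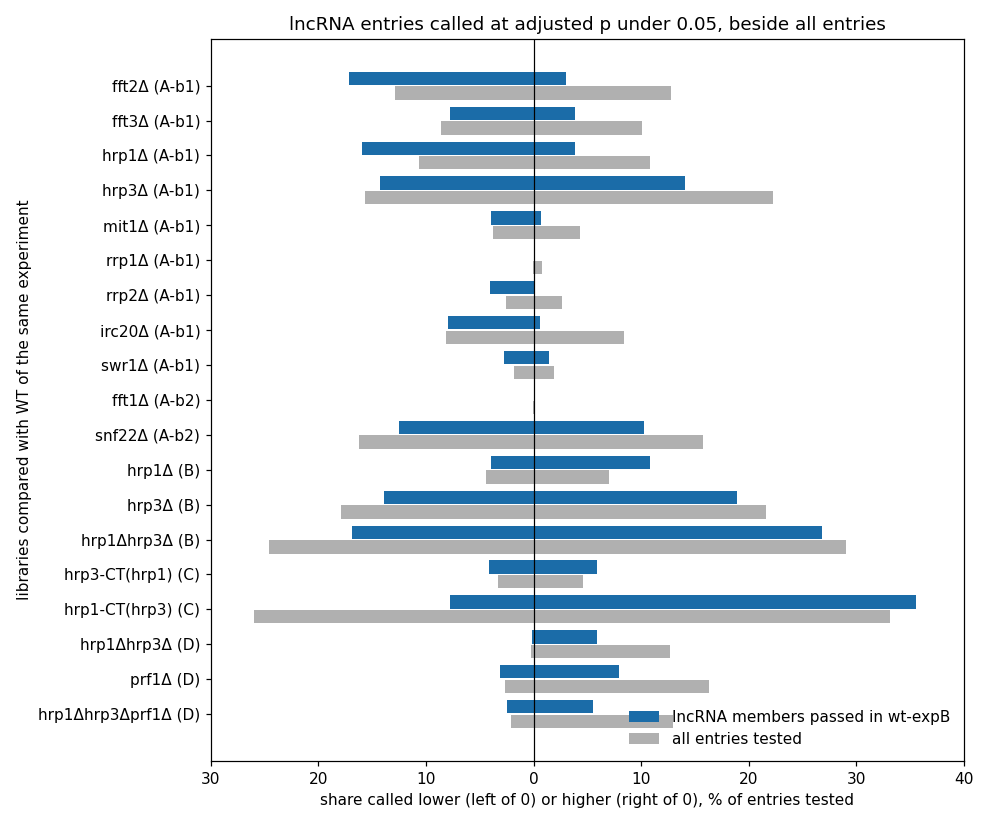
Share of lncRNA members that passed in wt-expB, and of all entries tested, that were called higher (right of 0) or lower (left of 0) in each mutant against the WT of its own batch or experiment, in percent of the entries tested. In the hrp1-CT(hrp3)-labelled libraries, 35.6% of these members were higher and 7.73% lower, against 33.1% and 26.0% of all entries.

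The rises of experiment B lay mostly on the strand opposite coding genes. That position held 661 of the 1028 tested members that had passed in wt-expB, and among them 234 rose and 83 fell in hrp1Δhrp3Δ (35.4% and 12.6%, median log2 fold change 0.27), 170 rose and 64 fell in hrp3Δ (25.7% and 9.68%, median 0.11), and 87 rose and 26 fell in hrp1Δ (13.2% and 3.93%, median 0.09). Of 156 over no annotated gene, 17 rose and 42 fell in the double mutant (median -0.33), 10 rose and 36 fell in hrp3Δ (-0.26), and 7 rose and 9 fell in hrp1Δ (-0.07). The 99 over another noncoding gene had medians of -0.35 and -0.29 in the double mutant and hrp3Δ, and the 77 over a coding gene on the same strand -0.02 and -0.03. The median of all entries was 0.00 in the double mutant and 0.01 in hrp3Δ. The negative medians depended on the scaling. With coding-gene TMM those over no gene were -0.10 in hrp1Δhrp3Δ, with 26 rises and 25 falls, and -0.09 in hrp3Δ, with 16 and 21. Over another noncoding gene they were -0.13 in each, over a coding gene on the same strand 0.21 and 0.14, and opposite coding genes 0.49 and 0.28. With the members that passed only through a mutant group included, 302 of 757 opposite coding genes rose in the double mutant and 221 in hrp3Δ, and 25 and 13 of 181 over no gene.

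The reverse-complement entry of each coding gene counts antisense reads over that gene, and it shares sequence with a member on that strand, so reads can be divided between them and the split is uncertain. Opposite the 170 members passed in wt-expB that rose in hrp3Δ, 121 such entries were tested and 69 (57.0%) also rose. Opposite those called neither way, 38.1% rose. The shares were 62.1% and 50.0% in hrp1Δhrp3Δ, and 64.9% and 61.2% in the hrp1-CT(hrp3)-labelled libraries. With the latter set against those labelled hrp3-CT(hrp1), the order was the other way (60.9% and 63.7%). These shares were not compared by a test. The coding gene itself fell for 21.0% of the genes opposite risen members and 24.6% of those opposite members called neither way in hrp3Δ, and for 31.3% and 39.7% in the double mutant. The order was the other way in hrp1Δ of B (11.9% and 7.63%), in the hrp1-CT(hrp3)-labelled libraries (40.6% and 34.9%) and in snf22Δ (31.7% and 21.1%). All such antisense entries of coding genes had a median log2 fold change of 1.73 in the double mutant and 1.12 in hrp3Δ (3306 tested), larger than the medians of 0.27 and 0.11 of members in that position. These sets were chosen differently, so the medians are not a like comparison. The members had to reach 1 CPM in wt-expB, and the antisense entries only had to pass the filter on low counts.

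**Figure D2:**
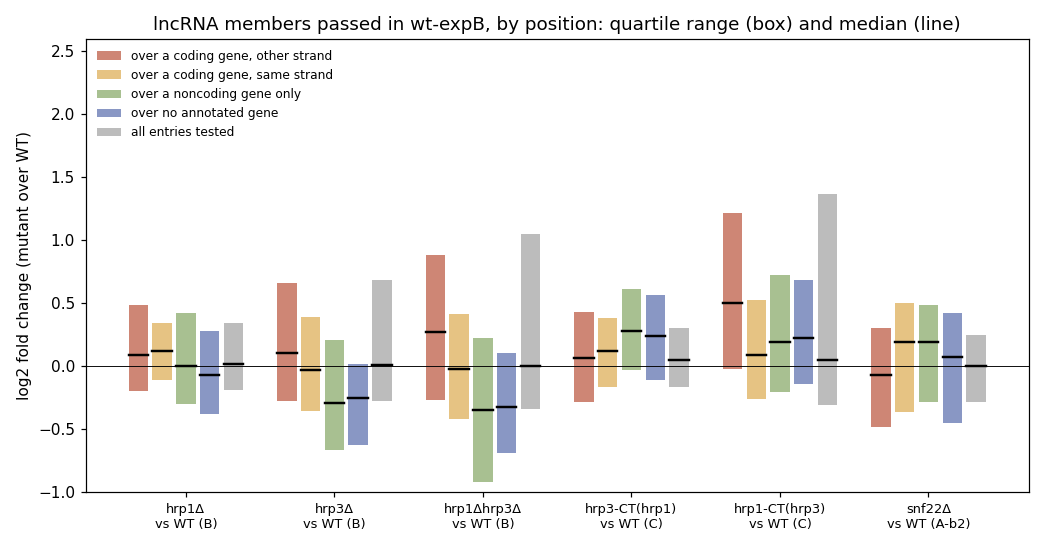
Log2 fold change (mutant over WT) of members that passed in wt-expB by their position, with all tested entries in grey, in 6 comparisons. Boxes span the lower to the upper quartile over entries and lines mark medians. Members opposite a coding gene had medians of 0.27 in hrp1Δhrp3Δ and 0.50 in the hrp1-CT(hrp3)-labelled libraries, and those over no gene -0.33 and 0.22.

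The members with the largest rises in hrp3Δ and the double mutant were nearly silent in WT. SPNCRNA.555, opposite ire1 (the kinase and nuclease of the unfolded protein response), had 12.65, 7.991 and 10.2 CPM in hrp1Δhrp3Δ and 9.132, 5.306 and 6.797 CPM in hrp3Δ, against 0, 0 and 0 CPM in WT of B. With 3 counts taken over the WT group as the floor, SPNCRNA.555 was at least 87.3-fold higher in hrp1Δhrp3Δ and at least 60.1-fold higher in hrp3Δ. SPNCRNA.852, opposite rif1 (a telomere and replication-timing protein) and on the same strand as ppk6, had 46.24, 19.98 and 43.42 CPM in hrp1Δhrp3Δ and 97.8, 64.95 and 81.69 CPM in hrp3Δ, against 1.317, 0.4807 and 0.3539 CPM in WT, a log2 fold change of 6.62 in hrp3Δ. The hrp1Δ libraries had 1.302, 0 and 0.5925 CPM of SPNCRNA.852, within the WT range or below it.

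SPNCRNA.15 (prl15), opposite crt10, had 13.79, 16.32 and 24.34 CPM in hrp1Δhrp3Δ and 17.5, 9.535 and 10.22 CPM in hrp3Δ, against 0.5387, 0 and 0.2247 CPM in WT. Its log2 fold changes were 5.82 and 5.36. SPNCRNA.569, opposite trm734, was also present in hrp1Δ, with 8.715, 4.881 and 4.33 CPM there, 7.597, 7.573 and 6.538 CPM in the double mutant and 2.224, 3.262 and 1.274 CPM in hrp3Δ, against 0.1946, 0 and 0 CPM in WT. None of the 4 RNAs reached 1 CPM on average in wt-expB, so they were members through mutant groups and their rises are given with no test. The rise of SPNCRNA.1002, opposite exg2, rested on unequal libraries, with 10.71, 0.001205 and 25.3 CPM in hrp3Δ and values under 0.001 CPM in WT.

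**Figure D3:**
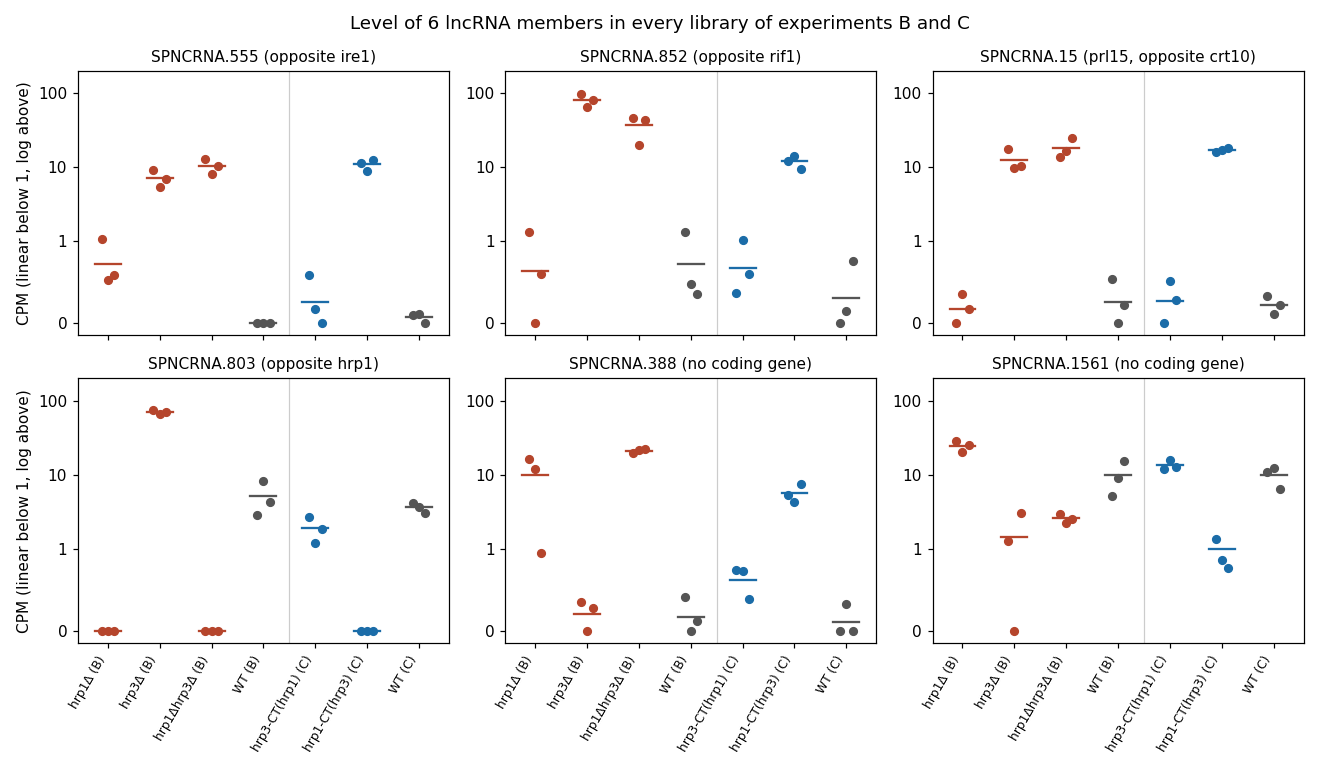
CPM of 6 members in each library of experiments B and C (points, linear below 1 and logarithmic above; lines mark means of 3), mutants left of their WT. SPNCRNA.555, SPNCRNA.852 and SPNCRNA.15 were high in hrp3Δ, hrp1Δhrp3Δ and the hrp1-CT(hrp3)-labelled libraries, and SPNCRNA.803 was at 0 in 3 of the groups.

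SPNCRNA.803 lies within the span of hrp1, on the other strand. It had 74.61, 66.14 and 71.39 CPM in hrp3Δ of B, against 2.82, 8.223 and 4.211 CPM in WT, a log2 fold change of 3.50 ± 0.25 (edgeR adjusted p = 1.22e-06). The A-b1 libraries labelled hrp3Δ had 70.85, 64.97 and 92.62 CPM, against 4.301, 3.548 and 5.804 CPM in WT (3.90 ± 0.35, adjusted p = 1.52e-08). It was at 0 in all libraries of hrp1Δ, of hrp1Δhrp3Δ and of those labelled hrp1-CT(hrp3) and hrp1Δhrp3Δprf1Δ, whose labels all name a deletion of hrp1, so removal of its template and a lower level of the RNA cannot be told apart there. Of these labels, hrp1-CT(hrp3) names a chimeric hrp1 in place of the deleted gene. The hrp3-CT(hrp1) label also names a deletion of hrp1, with an hrp1 C-terminus on the chimera. SPNCRNA.803 was present in those libraries at 2.697, 1.178 and 1.85 CPM, against 4.09, 3.637 and 3.067 CPM in WT of C. In prf1Δ it had 37.88, 35.18 and 0 CPM, against 2.12, 1.867 and 0.507 CPM in WT of D, where it was not tested.

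SPNCRNA.388, which overlaps no annotated gene, was higher in every hrp1Δ and hrp1Δhrp3Δ library of B than in the hrp3Δ libraries. It had 16.32, 11.98 and 0.9435 CPM in hrp1Δ and 19.8, 21.73 and 21.89 CPM in hrp1Δhrp3Δ, but 0.3473, 0 and 0.2769 CPM in hrp3Δ, against 0.404, 0 and 0.1124 CPM in WT of B. The hrp1Δ libraries of A-b1 also had more of it, with 6.571, 11.63 and 19.01 CPM against 0, 0 and 0.6448 CPM in WT. In mit1Δ it had 16.34, 18.26 and 17.0 CPM and in fft3Δ 14.52, 14.69 and 27.08 CPM, and prf1Δ had 63.71, 61.02 and 75.44 CPM against 0.7066, 0.3733 and 0 CPM in WT of D. SPNCRNA.388 was a member only through mutant groups, so its levels are given with no test. SPNCRNA.1126, opposite ria1, had passed in wt-expB. It had 20.8, 14.11 and 10.5 CPM in hrp1Δhrp3Δ, against 3.367, 2.951 and 3.821 CPM in WT (log2 change of 1.78 ± 0.25, edgeR adjusted p = 3.13e-05).

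Among members passed in wt-expB, falls in hrp3Δ were 26.3% over another noncoding gene and 23.1% over no gene, against 9.68% opposite a coding gene. With coding-gene TMM fewer members fell, 18, 21 and 41 in these classes (18.2%, 13.5% and 6.2%), in the same order of shares. SPNCRNA.1561, over another noncoding gene, had 2.953, 2.234 and 2.506 CPM in hrp1Δhrp3Δ and 1.257, 0 and 2.997 CPM in hrp3Δ, against 5.127, 8.862 and 15.22 CPM in WT of B (log2 change of -3.11 ± 0.57 in hrp3Δ, edgeR adjusted p = 0.000544). SPNCRNA.1674, likewise over a noncoding gene, had 0.1248, 0 and 0 CPM in hrp3Δ, against 7.785, 8.708 and 10.61 CPM in WT, a ratio of summed counts of 0.00457 (95% counting interval 0.000115 to 0.0257). Both overlap another noncoding entry, so how reads were divided between the entries is uncertain, and WT of A-b1 had 12.5, 0 and 0 CPM of SPNCRNA.1674. SPNCRNA.293, over no gene, had 1.892, 3.595 and 2.965 CPM in hrp1Δ, against 12.66, 11.59 and 11.69 CPM in WT of B (-2.23 ± 0.26, adjusted p = 6.68e-05), and 1.434, 2.68 and 3.098 CPM in prf1Δ, against 15.07, 11.95 and 28.39 CPM in WT of D (-4.47 ± 0.84, adjusted p = 0.00212).

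In experiment C the 2 groups of exchanged C-termini differed widely. The paper reports raised antisense levels for hrp3-CT(hrp1) and no such rise for hrp1-CT(hrp3), the reverse of what the labelled libraries held. Antisense entries of coding genes took 3.36% ± 0.08 of counts in the hrp1-CT(hrp3)-labelled libraries and 1.28% ± 0.05 in those labelled hrp3-CT(hrp1), against 1.14% ± 0.08 in WT of C (SD, n = 3 each; each group against WT, exact two-sided permutation p = 0.1, the smallest that 3 against 3 allow). Of 1150 members tested, 431 rose and 82 fell in the hrp1-CT(hrp3)-labelled libraries (all entries 33.1% and 26.0%), or 554 and 41 with coding-gene TMM, and 67 rose and 42 fell in those labelled hrp3-CT(hrp1) (4.61% and 3.28%), or 54, 71 and 70 called in all without WT replicate 1, 2 or 3. Compared directly, 396 were higher and 136 lower in the hrp1-CT(hrp3)-labelled libraries than in those labelled hrp3-CT(hrp1) (32.6% and 27.6% of all entries), or 507 and 70 with coding-gene TMM. Members that had passed in wt-expB, a set chosen on libraries outside C, counted 350 rises and 76 falls among 983 in the hrp1-CT(hrp3)-labelled libraries. Among these, 284 of 645 opposite coding genes rose and 45 fell, and 28 of 143 over no gene rose and 14 fell. With coding-gene TMM the counts were 353 and 20 opposite coding genes and 54 and 6 over no gene.

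Single RNAs of experiment C had the following levels. SPNCRNA.555 had 11.29, 8.931 and 12.35 CPM in the hrp1-CT(hrp3)-labelled libraries, against 0.09472, 0.1083 and 0 CPM in WT, a summed ratio of 186.3. SPNCRNA.569 had 14.86, 9.639 and 15.74 CPM there, against 0.1673, 0 and 0.06577 CPM in WT. Both were members only through mutant groups, so their rises are given with no test. SPNCRNA.1561 was low with 1.354, 0.8665 and 0.7599 CPM, against 10.96, 12.46 and 6.337 CPM in WT (log2 change of -3.58 ± 0.35, edgeR adjusted p = 3.26e-06), and SPNCRNA.1641, opposite the vacuolar sorting gene vps1301, had 3.626, 4.136 and 3.964 CPM, against 19.14, 17.58 and 16.57 CPM (-2.40 ± 0.21, adjusted p = 1.53e-06). SPNCRNA.1504 had 13.19, 11.03 and 12.61 CPM in the hrp1-CT(hrp3)-labelled libraries and no whole count in WT of C, at least 134.1-fold higher, but 20.48, 15.33 and 15.74 CPM in WT of B. It overlaps another noncoding entry, so how reads were divided between them is uncertain.

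In the hrp3-CT(hrp1)-labelled libraries, SPNCRNA.804, which lies on the same strand as hrp1 and opposite atg12 (an autophagy gene), had 0.7373, 1.446 and 1.439 CPM, against 6.075, 5.09 and 5.639 CPM in WT (log2 change of -2.16 ± 0.29, edgeR adjusted p = 0.0011). It overlaps hrp1, whose deletion that label names along with an hrp1 C-terminus on the chimera. The hrp1 entry was detected in each of these libraries, as given above. Whether a changed template had a part was not tested. SPNCRNA.1180, opposite the meiotic cohesin gene rec11, had 0, 2.133 and 1.135 CPM, against 8.303, 7.187 and 6.886 CPM in WT (-2.62 ± 0.46, adjusted p = 0.00494).

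Snf22 is the catalytic subunit of a SWI/SNF complex, and Fft1 a remodeler of the Fun30 family. Of 907 members tested in A-b2, 101 rose and 108 fell in snf22Δ (all entries 15.7% and 16.3%), and 0 rose and 0 fell in fft1Δ (0.0% and 0.0119%). In fft1Δ 33 members were higher and 10 lower at an unadjusted p under 0.05, and DESeq2 called 3. Of the 856 tested that had passed in wt-expB, 88 rose and 107 fell in snf22Δ. Those opposite coding genes counted 42 rises and 71 falls of 569, and those over no gene 15 rises and 16 falls of 114. SPNCRNA.989, over no gene, had 51.66, 41.15 and 41.73 CPM in snf22Δ, against 4.456, 4.099 and 4.404 CPM in WT (log2 change of 3.44 ± 0.17, edgeR adjusted p = 6.15e-09). SPNCRNA.74 had 7.289, 5.188 and 6.703 CPM, against 121.9, 116.8 and 116.8 CPM (-4.13 ± 0.10, adjusted p = 5.68e-12).

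The WT libraries of A-b2 differed little in these RNAs. SPNCRNA.03 (prl3) had 24.51, 26.71 and 23.82 CPM in snf22Δ, against 119.9, 127.4 and 136.4 CPM in WT (log2 change of -2.28 ± 0.07, edgeR adjusted p = 9e-11). SPNCRNA.888, opposite end4 (an endocytosis gene), had 0.3312, 0 and 0.1791 CPM, against 16.19, 14.83 and 13.21 CPM (summed ratio 0.012, 95% counting interval 0.00246 to 0.0354). SPNCRNA.1319, opposite the hexose transporter gene ght4, had 0, 0.04467 and 1.055 CPM, against 11.08, 13.14 and 12.04 CPM (-4.92 ± 0.53, adjusted p = 1.17e-05).

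Several members with a known role are transcribed into a phosphate-responsive gene and repress it. The lncRNA prt2 (SPNCRNA.9001) lies on the strand of pho84, a phosphate transporter gene, and had 8.864, 14.39 and 12.68 CPM in snf22Δ, against 97.49, 107.9 and 106.4 CPM in WT (log2 change of -3.05 ± 0.11, edgeR adjusted p = 3.6e-10). In the same libraries pho84 fell by 3.58 (33.68, 31.9 and 32.33 CPM, against 420.7, 411.2 and 400.2 CPM in WT, adjusted p = 6.27e-13). Likewise nc-pho1 (SPNCRNA.1712) had 10.28, 5.16 and 8.266 CPM, against 146.9, 142.5 and 142.1 CPM (-4.09 ± 0.12, adjusted p = 2.74e-11), and the acid phosphatase gene pho1 16.21, 13.44 and 13.94 CPM, against 780.3, 811.7 and 770.1 CPM (-5.68 ± 0.08, adjusted p = 1.24e-14). Both lncRNAs and both genes fell together, and since each pair overlaps on 1 strand, reads can be divided between them.

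Of these pairs, nc-pho1 and pho1 rose together in hrp1Δhrp3Δ of B and fell together in the hrp1-CT(hrp3)-labelled libraries. In hrp1Δhrp3Δ of B, nc-pho1 had 41.89, 36.74 and 49.14 CPM, against 25.69, 26.9 and 17.11 CPM in WT (0.52 ± 0.18, edgeR adjusted p = 0.0262), and pho1 rose by 0.65 (adjusted p = 0.0205). Neither call outlasted the loss of 1 library: without replicate 3 of WT or of hrp1Δhrp3Δ nc-pho1 had adjusted p = 0.124 and 0.122, without WT replicate 1 or 2 or hrp1Δhrp3Δ replicate 3 pho1 had adjusted p = 0.0834, 0.0853 and 0.126, and with DESeq2 pho1 had 0.0606. In the same libraries prt2 had 153.0, 139.0 and 150.1 CPM, against 78.15, 72.24 and 62.74 CPM in WT (0.69 ± 0.09, adjusted p = 1.2e-05), while its neighbour pho84 did not pass the test, with 109.7, 100.4 and 113.8 CPM, against 83.89, 82.11 and 95.01 CPM (-0.06 ± 0.12, adjusted p = 0.683, or 0.17 with coding-gene TMM, adjusted p = 0.241). In the hrp1-CT(hrp3)-labelled libraries, nc-pho1 had 57.74, 51.0 and 51.68 CPM, against 124.6, 121.9 and 119.3 CPM (-1.42 ± 0.09, adjusted p = 1.72e-07), and pho1 fell by 1.98 (adjusted p = 2.93e-08). The WT levels of pho1 differed as well, with 48.78, 49.49 and 60.98 CPM in B and 550.9, 419.2 and 510.1 CPM in C.

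At the locus of tgp1, a glycerophosphodiester transporter gene, the noncoding entries differed in direction. ncRNA.1343 (SPNCRNA.1343) had 14.03, 11.35 and 11.59 CPM in hrp1Δhrp3Δ and 13.2, 21.23 and 18.0 CPM in hrp3Δ, against 44.98, 43.39 and 45.62 CPM in WT of B (log2 fold changes -2.23 ± 0.18 and -1.64 ± 0.17, edgeR adjusted p = 1.37e-07 and 3.74e-06). In the double mutant tgp1 rose by 1.96 (52.24, 48.85 and 60.1 CPM, against 13.06, 9.618 and 9.664 CPM, adjusted p = 5.82e-08). The upstream RNA nc-tgp1 (SPNCRNA.1698), which lies on the strand of tgp1, had 41.03, 37.27 and 34.82 CPM, against 25.4, 23.66 and 18.15 CPM (0.39 ± 0.11, adjusted p = 0.00693). The antisense RNA of the alcohol dehydrogenase gene adh1 was annotated as 2 near-copies (SPNCRNA.1710 and SPNCRNA.1711), so its level is uncertain.

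**Figure D4:**
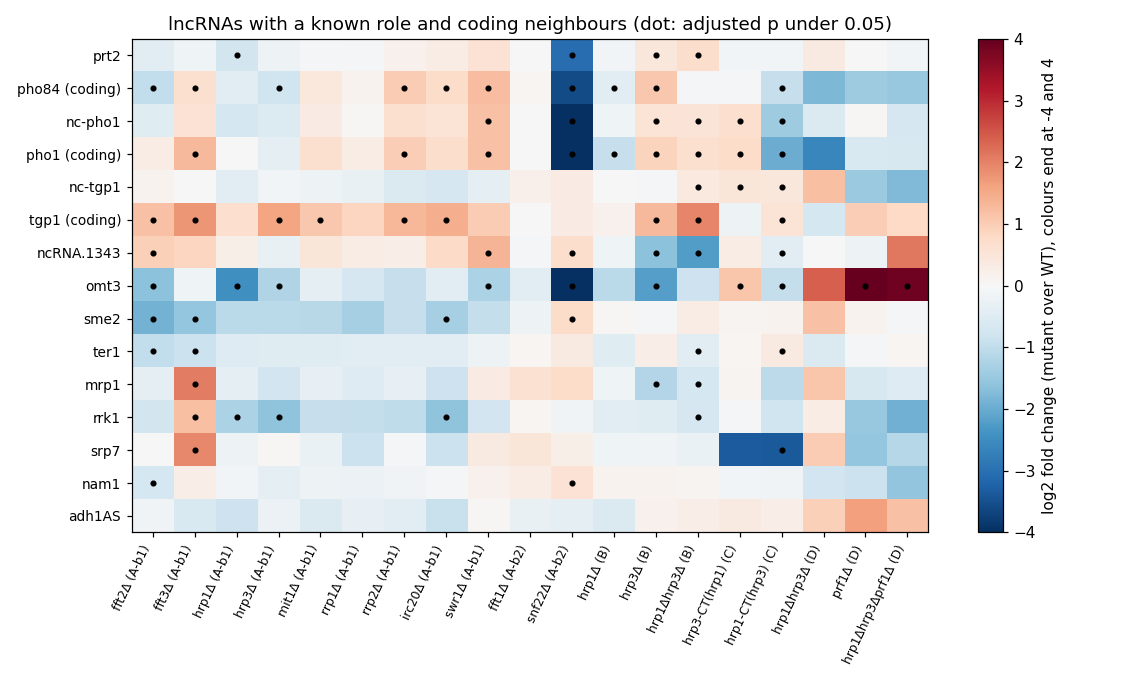
Log2 fold change (mutant over WT) of members with a known role and of 3 coding neighbours in the 19 comparisons with WT. Dots mark an adjusted p under 0.05 and blank cells entries not tested. In snf22Δ, prt2, pho84, nc-pho1 and pho1 changed by -3.05, -3.58, -4.09 and -5.68.

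RNAs of known machines were also among the members. Most of them are not thought to carry long poly(A) tails, so a library of polyadenylated RNA may hold a small part of each. ter1 (SPNCRNA.214), the telomerase RNA, changed by -0.41 ± 0.16 in hrp1Δhrp3Δ of B (13.53, 10.93 and 9.346 CPM, against 13.6, 11.69 and 9.776 CPM in WT, edgeR adjusted p = 0.0384), where mutant and WT libraries overlapped in CPM. The call was lost with coding-gene TMM (-0.19, adjusted p = 0.357), with DESeq2 (adjusted p = 0.082), on the 2 groups alone (0.124) and without WT replicate 1 (0.137) or hrp1Δhrp3Δ replicate 2 or 3 (0.0768 and 0.156). mrp1 (SPNCRNA.82), the RNA of RNase MRP, rose in fft3Δ to 18.94, 38.24 and 28.51 CPM, against 9.011, 7.096 and 3.869 CPM in WT of A-b1 (2.04 ± 0.44, adjusted p = 0.00168). srp7 (SPNCRNA.98), the RNA of the signal recognition particle, had 30.93, 18.72 and 25.66 CPM in fft3Δ, against 9.011, 7.096 and 2.579 CPM (1.93 ± 0.61, adjusted p = 0.0265), a call lost without WT replicate 1, 2 or 3 (adjusted p = 0.055, 0.0575 and 0.0819) or fft3Δ replicate 1 (0.122). Its call in the hrp1-CT(hrp3)-labelled libraries rested on 1 WT library, with 2.883, 5.381 and 1.991 CPM against 1.746, 78.63 and 1.084 CPM in WT of C, and without WT replicate 2 the log2 fold change was 0.94, against -3.36 with it.

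sme2 (SPNCRNA.103), the meiRNA that binds the meiosis regulator Mei2, had 103.5, 128.6 and 94.21 CPM in prf1Δ, against 12.72, 21.28 and 55.77 CPM in WT of D, with no overlap in CPM, but a fitted log2 fold change of 0.15 ± 1.15 (edgeR adjusted p = 0.96), or 2.31 without the 3 libraries of D that stand apart (adjusted p = 0.00061). It rose by 0.75 ± 0.20 in snf22Δ (11.09, 12.46 and 12.18 CPM, against 6.482, 8.046 and 8.021 CPM, edgeR adjusted p = 0.0105, or 0.0534 without WT replicate 1). omt3 (SPNCRNA.130) had 49.38, 122.9 and 36.08 CPM in prf1Δ, against 0.9421, 0.3733 and 1.014 CPM in WT of D (5.48 ± 0.97, adjusted p = 0.00167), and 1.389, 0.491 and 1.246 CPM in hrp3Δ of B, against 3.906, 5.902 and 2.36 CPM in WT (-2.21 ± 0.40, adjusted p = 0.000494). Its WT level differed between experiments, with means of 0.776 CPM in D and 23.2 CPM in A-b1. nam5 and nam6 had group means of at most 1.75 CPM and were tested in 0 comparisons.

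Members named prl or meu (meiotic expression upregulated) are subsets with their own names. Of 30 prl members passed in wt-expB and tested in B, 3 rose and 3 fell in hrp1Δhrp3Δ (10.0% each, against 29.0% and 24.6% of all entries), and 0 rose and 5 fell in hrp3Δ (16.7% lower, against 21.6% higher and 17.9% lower). With coding-gene TMM 5 rose and 0 fell in the double mutant, and 1 rose and 2 fell in hrp3Δ. Of 27 tested in C, 6 rose and 2 fell in the hrp1-CT(hrp3)-labelled libraries (22.2% and 7.41%, against 33.1% and 26.0%), and of 23 tested in A-b2, 5 rose and 3 fell in snf22Δ (21.7% and 13.0%, against 15.7% and 16.3%). All 4 meu members were tested and had passed in wt-expB, and 3 rose in snf22Δ and 2 rose and 1 fell in the double mutant of B, or 3 and 0 with coding-gene TMM. Genes taken as markers of meiosis moved with some of these groups. The summed level of mei4, mfr1, rec8 and spo6 was 17.3 to 25.0 CPM in hrp1Δhrp3Δ and 16.1 to 22.9 CPM in hrp3Δ, against 5.62 to 6.995 CPM in WT of B, 32.8 to 35.9 CPM in the hrp1-CT(hrp3)-labelled libraries, against 10.1 to 14.0 CPM in WT of C, and 45.8 to 65.4 CPM in prf1Δ, against 1.52 to 16.0 CPM in WT of D. Of these 4 genes 3 rose and 0 fell in hrp3Δ and in the double mutant of B, where 21.6% and 29.0% of all entries rose. The paper names spo6 and mfr1 among genes nested opposite longer host genes and affected in hrp3Δ, so a higher sum need not mark meiosis. The part of these 4 genes in the results was not tested.

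Genes of RNA decay were looked at because decay sets the level of many lncRNAs. Of 18 genes of nuclear RNA decay (exosome, TRAMP and MTREC components and their partners), 1 rose and 9 fell in hrp1Δhrp3Δ of B, 0 rose and 5 fell in hrp3Δ, 0 rose and 6 fell in the hrp1-CT(hrp3)-labelled libraries, and 2 rose and 10 fell in snf22Δ. For coding genes as a whole, 7.94% rose and 42.6% fell in the double mutant, 6.48% and 30.9% in hrp3Δ, 7.24% and 49.4% in the hrp1-CT(hrp3)-labelled libraries, and 21.8% and 20.5% in snf22Δ. Of 11 genes of RNA interference and cytoplasmic decay, 0 rose and 5 fell in the hrp1-CT(hrp3)-labelled libraries, and 4 rose and 0 fell in the libraries labelled fft2Δ, where 923 of 4870 coding genes rose and 745 fell.

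In A-b1 falls outnumbered rises in most mutants, and they depended on WT replicate 1. Of 924 members tested, 30 rose and 154 fell in the libraries labelled fft2Δ (all entries 12.8% and 12.9%), 41 and 70 in fft3Δ (10.1% and 8.58%), 38 and 140 in hrp1Δ (10.9% and 10.7%), 146 and 128 in the libraries labelled hrp3Δ (22.2% and 15.7%, or 137 and 220 with the filter at 1 CPM and 147 and 159 with no filter), 10 and 38 in mit1Δ (4.34% and 3.81%), 3 and 35 in rrp2Δ (2.68% and 2.52%), 6 and 71 in irc20Δ (8.38% and 8.11%), and 13 and 23 in swr1Δ (1.94% and 1.83%). In the libraries labelled rrp1Δ 2 rose and 0 fell (0.742% and 0.0236%), with 37 higher and 81 lower at an unadjusted p under 0.05 and 4 called by DESeq2. Among the 839 that had passed in wt-expB, 25 rose and 144 fell in the libraries labelled fft2Δ, 32 and 65 in fft3Δ, 32 and 134 in hrp1Δ, 118 and 120 in the libraries labelled hrp3Δ, 6 and 33 in mit1Δ, 0 and 34 in rrp2Δ, 5 and 67 in irc20Δ, and 12 and 23 in swr1Δ. Without WT replicate 1, 34 members fell in the libraries labelled fft2Δ, 27 in fft3Δ, 31 in hrp1Δ, 55 in those labelled hrp3Δ, 2 in mit1Δ, 5 in swr1Δ and 0 in rrp2Δ and irc20Δ, while 24, 44, 24, 145, 4, 9, 1 and 0 rose. Other single libraries moved the smaller counts too. Without WT replicate 3, 97 members fell in mit1Δ, 124 in rrp2Δ and 139 in irc20Δ, and 5 fell in the libraries labelled rrp1Δ. Leaving out one mutant library left 73 calls in hrp1Δ (replicate 1), 108 in the libraries labelled fft2Δ (replicate 2), 10 and 16 in mit1Δ (replicates 1 and 2), 0 in rrp2Δ and irc20Δ (replicate 1 or 2 of each), and 7 to 56 in swr1Δ.

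Single members of A-b1 had the following levels. SPNCRNA.1117, opposite fft2, had 100.4, 169.7 and 213.9 CPM in the libraries labelled fft2Δ, against 6.829, 4.943 and 3.686 CPM in WT (log2 change of 4.81 ± 0.28, edgeR adjusted p = 6.4e-12). The label names a deletion of fft2, though fft2 itself was above WT there. A changed locus and a changed level of SPNCRNA.1117 cannot be told apart. SPNCRNA.1259, on the strand of the peroxiredoxin gene tpx1, had 3.151, 6.837 and 9.826 CPM in the libraries labelled fft2Δ, against 0, 0 and 0 CPM in WT, at least 23.5-fold higher. SPNCRNA.1208, opposite snp27, had 9.626, 5.65 and 5.356 CPM in irc20Δ, against 1.437, 1.261 and 2.78 CPM (2.10 ± 0.47, adjusted p = 0.00918, or 0.158 without WT replicate 1 and 0.0554 and 0.0578 without irc20Δ replicate 1 or 2). SPNCRNA.1156, on the strand of oca2, had 16.38, 12.03 and 22.49 CPM in swr1Δ, against 3.129, 2.661 and 6.448 CPM (2.17 ± 0.32, adjusted p = 0.000462, or 0.119 on the 2 groups alone). SPNCRNA.1160, opposite gir2, had 32.19, 57.66 and 55.12 CPM in fft3Δ, against 5.507, 6.209 and 6.448 CPM. In mit1Δ, SPNCRNA.234, over no gene, had 5.32, 9.168 and 6.931 CPM, against 0, 0 and 0 CPM in WT, at least 25.4-fold higher.

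In D, of 1175 members tested, 87 rose and 1 fell in hrp1Δhrp3Δ (all entries 12.7% and 0.218%), 146 rose and 33 fell in prf1Δ (16.3% and 2.65%), and 107 rose and 25 fell in the libraries labelled hrp1Δhrp3Δprf1Δ (13.0% and 2.11%). Among the 999 that had passed in wt-expB, 59 rose and 1 fell in hrp1Δhrp3Δ, 79 and 31 in prf1Δ, and 55 and 25 in the libraries labelled hrp1Δhrp3Δprf1Δ. Fitted with WT alone, hrp1Δhrp3Δ had 0 calls and the libraries labelled hrp1Δhrp3Δprf1Δ had 3 rises and 1 fall. Between mutants, 18 members were higher and 10 lower in prf1Δ than in hrp1Δhrp3Δ (1.27% and 0.882%). Without the 3 libraries that stand apart, 301 rose and 11 fell in the double mutant, 532 and 52 in prf1Δ, 426 and 51 in the libraries labelled hrp1Δhrp3Δprf1Δ, and 196 were higher and 138 lower in prf1Δ than in the double mutant. With coding-gene TMM, which moved the median of all entries by 0.48 to 0.64 in the comparisons of D with WT and by -0.19 between prf1Δ and hrp1Δhrp3Δ, 172 rose and 10 fell in prf1Δ, 115 and 7 in the libraries labelled hrp1Δhrp3Δprf1Δ, and 7 were higher and 2 lower in prf1Δ than in the double mutant. DESeq2 gave 24 higher and 48 lower in that last comparison. Single libraries decided these counts: without WT replicate 3, 2 or 1 the double mutant had 359, 32 or 19 calls, and without replicate 1 or 3 of the libraries labelled hrp1Δhrp3Δprf1Δ that group had 64 or 48. Calls in prf1Δ numbered 99 to 268 and those between prf1Δ and the double mutant 2 to 82 with one library left out.

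SPNCRNA.1528, opposite tri1, was at 0 in the 3 prf1Δ libraries, against 3.533, 3.733 and 4.056 CPM in WT and 8.243, 8.66 and 6.201 CPM in hrp1Δhrp3Δ, at least 20.9-fold lower than WT. SPNCRNA.696, opposite mcp1, had 0.2185, 1.229 and 0.6095 CPM in prf1Δ, against 4.815, 8.213 and 7.098 CPM in WT (-4.54 ± 0.91, edgeR adjusted p = 0.00282). SPNCRNA.824 went the other way, with 9.557, 9.277 and 12.76 CPM in prf1Δ and 9.005, 7.728 and 12.4 CPM in hrp1Δhrp3Δ, against 0, 0 and 0 CPM in WT, at least 31.2-fold and 28.8-fold higher. Among those that passed only through a mutant group, SPNCRNA.1354, opposite the ribosome assembly gene sda1, had 15.51, 13.36 and 23.58 CPM in prf1Δ, against 0, 0 and 0 CPM in WT, and SPNCRNA.132, opposite the meiotic recombination gene rec7, had 9.309, 6.003 and 13.19 CPM, against 0, 0 and 0 CPM. In the libraries labelled hrp1Δhrp3Δprf1Δ, the 37210 CPM of SPNCRNA.1065 and the 7657 CPM of SPNCRNA.571 came from the library of 3657 counts, and the other 2 libraries had 33.85 and 34.26 CPM of SPNCRNA.1065 and 5.389 and 1.984 CPM of SPNCRNA.571.

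The share of a library's counts on all SPNCRNA sense entries sums the class, including entries that share sequence with antisense entries of coding genes. It was 1.83% ± 0.03 in hrp1Δhrp3Δ, 1.70% ± 0.12 in hrp3Δ and 1.55% ± 0.05 in hrp1Δ, against 1.28% ± 0.20 in WT of B (SD, n = 3 each), and no mutant library of B overlapped the WT range. As a share of TPM, hrp1Δ (0.759% to 0.790%) overlapped WT (0.507% to 0.763%), but hrp3Δ and hrp1Δhrp3Δ did not. Over entries with no overlapping gene, hrp1Δ (0.189% to 0.211% of counts) and hrp3Δ (0.175% to 0.207%) overlapped WT (0.141% to 0.197%), but hrp1Δhrp3Δ did not. The share of counts on all SPNCRNA sense entries was 1.99% ± 0.07 in the hrp1-CT(hrp3)-labelled libraries and 1.68% ± 0.13 in those labelled hrp3-CT(hrp1), against 1.52% ± 0.03 in WT of C. In D it was 2.85% ± 0.17 in prf1Δ and 2.86% ± 0.70 in hrp1Δhrp3Δ, against 1.70% ± 0.14 in WT. The libraries labelled hrp1Δhrp3Δprf1Δ had 2.27%, 10.3% and 2.45%, of which 10.3% was the library of 3657 counts. In A-b2 it was 1.23% to 1.25% in fft1Δ, where no member was called, and 1.21% to 1.31% in snf22Δ. Neither overlapped WT of A-b2 (1.16% to 1.20%). In A-b1 the share was lower than in every WT library only in rrp2Δ (1.29% ± 0.05 against 1.55% ± 0.21). The A-b1 libraries labelled hrp3Δ (1.71% to 1.98%) overlapped WT (1.37% to 1.78%), unlike hrp3Δ of B. With 3 libraries against 3 an exact two-sided permutation test cannot go below p = 0.1, and after adjustment over 19 comparisons the lowest value was 0.173.

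**Figure D5:**
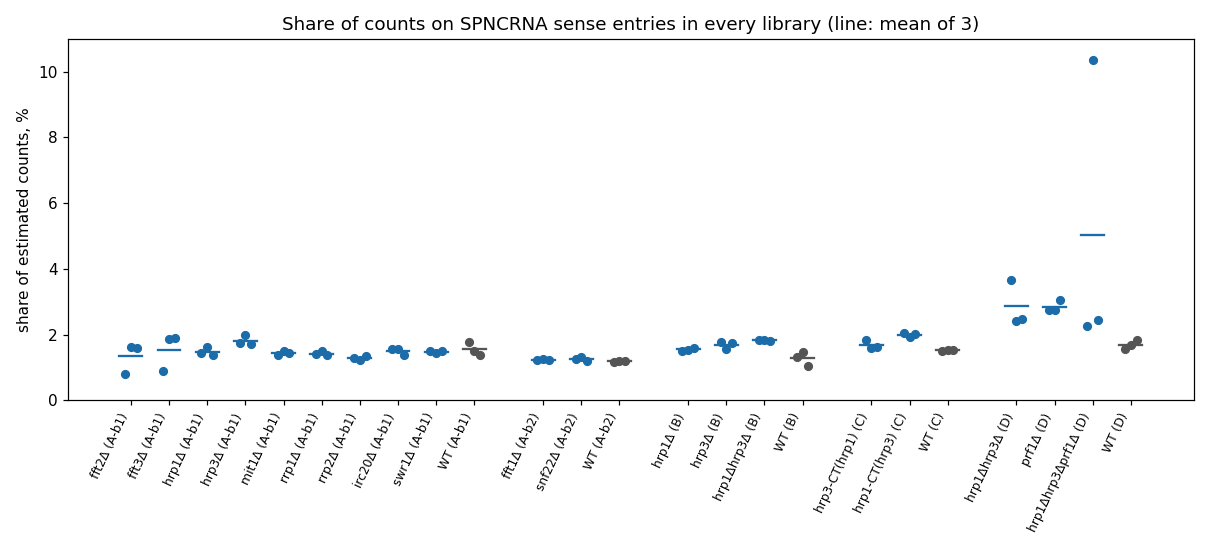
Share of estimated counts on SPNCRNA sense entries in each of the 72 libraries, in percent, with lines at the mean of 3 and WT (grey) right of its mutants (blue). The means of B were 1.83%, 1.70% and 1.55% in hrp1Δhrp3Δ, hrp3Δ and hrp1Δ, against 1.28% in WT.

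Libraries with the same genotype label were sequenced in 2 experiments, though hrp3 in those labelled hrp3Δ of A-b1 was not below WT on average. The following counts are of members passed in wt-expB. No share of all entries stands beside them, so they are not read as particular to lncRNAs. For the hrp3Δ label, 88 rose in both A-b1 and B, 74.6% of those that rose in A-b1 and 49.2% of those in B, and 54 fell in both (45.0% and 44.6%). Without WT replicate 1 of A-b1, an alternative chosen after seeing the data, 88 rose in both and 25 fell in both. The fold changes differed in an edgeR interaction test for 59 of 1018. For hrp1Δ, 19 rose in both (59.4% and 18.6%), 24 fell in both (17.9% and 63.2%), and 41 of 1020 differed. For hrp1Δhrp3Δ in B and D, 48 rose in both (17.6% and 82.8%), 1 fell in both, and 0 of 1028 differed after adjustment, with 58 at an unadjusted p under 0.05.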

How the data were processed

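RNA was extracted with hot acid phenol, polyadenylated RNA was made into strand-specific libraries and sequenced in pairs, and the authors estimated abundance with kallisto (version not given in the sources used here; build ASM294v2). The deposited tables hold estimated counts and TPM values, made by the authors for each annotated transcript and for its reverse complement. Estimated counts were rounded to whole numbers. TPM served only for an alternative share of the class. CPM is the estimated count as a share of the library total, on the usual CPM scale.

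For each batch or experiment 1 edgeR (4.0.16) quasi-likelihood model was fitted over all its groups, with TMM factors from all entries, a filter on low counts (filterByExpr, minimum count 10 and total 15) and Benjamini-Hochberg adjustment over all entries tested. Values with ± beside a log2 fold change are standard errors. A fitted fold change of a gene at 0 depends on the prior count (0.125), so a bound from 3 counts over the group is given instead. With 1 to 3 counts the ratio of summed counts has an exact binomial 95% interval, which covers counting error only, as reads are not independent molecules. Shares were compared by exact permutation tests. DESeq2 (1.42.0), other filters, other scaling, 2 groups alone, a replicate block and single libraries left out were alternatives. Scripts were tested on simulated data.

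Named members were those with a known role, the 10 highest per kb in wt-expB, the largest changes with separated groups and a mean of at least 2 CPM in 1 group, and those called the same way in most comparisons. SPNCRNA.1002, SPNCRNA.1504 and SPNCRNA.571 are singled out for how their libraries differ. Members and lists were chosen with earlier results of these data known. Among members, adjusted p-values are given only for those that passed in wt-expB. Positions come from RefSeq's annotation of a later assembly, so no coordinates or sequences are given.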

Additional observations from a re-analysis of the deposited data

Results flagged for a closer look

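Among members passed in wt-expB, fold changes against WT of libraries with the same genotype label differed between A-b1 and B by an edgeR interaction test (adjusted p under 0.05) for 41 in hrp1Δ and 59 in hrp3Δ. These counts have no share of all entries beside them, so they are not read as particular to lncRNAs. The level of hrp3 in the A-b1 libraries labelled hrp3Δ went against the label, at 21.2 to 38.3 CPM, against 21.3 to 25.7 CPM in WT. The values below are A-b1 minus B on the log2 scale. In hrp1Δ, SPNCRNA.1504 differed by -8.73, with 0, 0 and 0 CPM in hrp1Δ against 15.9, 3.003 and 0.5462 CPM in WT of A-b1, and 15.43, 16.31 and 21.81 CPM in hrp1Δ against 20.48, 15.33 and 15.74 CPM in WT of B.

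In hrp3Δ, SPNCRNA.602 differed by -3.91, with 0.4408, 0.3483 and 0 CPM in the libraries labelled hrp3Δ against 4.379, 4.774 and 1.196 CPM in WT of A-b1, and 9.348, 7.468 and 13.1 CPM in hrp3Δ against 5.449, 6.36 and 5.834 CPM in WT of B. SPNCRNA.1622 differed by -3.31, with 1.009, 0 and 0 CPM in the libraries labelled hrp3Δ against 5.116, 16.57 and 4.06 CPM in WT of A-b1, and 2.627, 3.185 and 2.239 CPM in hrp3Δ against 2.489, 4.238 and 1.819 CPM in WT of B.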

How the results depend on the processing

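Of 167 named values, recomputed 1980 times under alternatives, 1756 kept direction and side of the threshold, 217 kept direction but missed it, 1 passed it only under the alternative and 6 reversed, while DESeq2 gave no adjusted p for 18 more. The reversals were pho84 (SPBC8E4.01c) in hrp1Δhrp3Δ of B, 0.166 with coding-gene TMM and 0.07 without WT replicate 3 (-0.156 to 0.07 with one library left out), SPNCRNA.98 in the hrp1-CT(hrp3)-labelled libraries, 0.935 without WT replicate 2 (-3.954 to 0.935 with one library left out), and SPNCRNA.103 in prf1Δ, -0.357, -0.245 and -0.048 without WT replicate 1 or 2 or prf1Δ replicate 2 (-0.357 to 2.281 with one library left out). Of these only SPNCRNA.98 was called with every library. Counts of members called, those passed only through a mutant group included, moved more, and the cause was not tested. Fitted on the 2 groups alone, they were 30 for the libraries labelled fft2Δ, 23 for fft3Δ, 93 for hrp1Δ of A-b1, 12 for mit1Δ, 0 for those labelled rrp1Δ, 1 for rrp2Δ, 22 for irc20Δ, 1 for swr1Δ, 66 for those labelled hrp3-CT(hrp1), 0 for hrp1Δhrp3Δ of D, 4 for the libraries labelled hrp1Δhrp3Δprf1Δ and 9 between prf1Δ and hrp1Δhrp3Δ. With a filter at 1 CPM mit1Δ had 29, rrp2Δ 7, irc20Δ 36 and swr1Δ 18 calls, and with no filter they had 29, 7, 32 and 17, and fft1Δ 1. DESeq2 called 31 in mit1Δ, 4 in those labelled rrp1Δ, 19 in rrp2Δ, 47 in irc20Δ, 3 in fft1Δ, 147 in hrp1Δhrp3Δ of D and 72 between prf1Δ and hrp1Δhrp3Δ. With TMM from coding genes these last 2 were 143 and 9. Without the 3 libraries of D that stand apart, chosen after seeing the data, 312 were called in hrp1Δhrp3Δ, 584 in prf1Δ, 477 in the libraries labelled hrp1Δhrp3Δprf1Δ and 334 between prf1Δ and hrp1Δhrp3Δ.

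Among members over no annotated gene, a smaller set by construction, the calls were 34 for the libraries labelled fft2Δ, 18 for fft3Δ, 34 for hrp1Δ and 28 for those labelled hrp3Δ of A-b1, 12 for mit1Δ, 1 for those labelled rrp1Δ, 8 for rrp2Δ, 14 for irc20Δ, 2 for swr1Δ, 33 for snf22Δ, 19, 49 and 67 for hrp1Δ, hrp3Δ and hrp1Δhrp3Δ of B, 13 and 52 for those labelled hrp3-CT(hrp1) and hrp1-CT(hrp3), 6, 21 and 17 for hrp1Δhrp3Δ, prf1Δ and the libraries labelled hrp1Δhrp3Δprf1Δ of D, 61 for hrp3Δ against hrp1Δ, 13 for hrp1Δhrp3Δ against hrp3Δ, 64 between the libraries of C and 4 for prf1Δ against hrp1Δhrp3Δ. Among all members, not only those over no gene, the split of higher and lower calls moved by over 10 percentage points to 9 and 21 in the libraries labelled fft2Δ, 7 and 5 in mit1Δ, 4 and 18 in irc20Δ and 0 and 1 in swr1Δ on 2 groups alone, and to 30 and 83 in fft3Δ and 137 and 220 in the A-b1 libraries labelled hrp3Δ with the filter at 1 CPM.

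With each library left out in turn, calls ranged from 58 to 211 for the libraries labelled fft2Δ, 71 to 120 for fft3Δ, 55 to 214 for hrp1Δ and 200 to 304 for those labelled hrp3Δ of A-b1, 6 to 108 for mit1Δ, 1 to 7 for those labelled rrp1Δ, 0 to 128 for rrp2Δ, 0 to 150 for irc20Δ, 7 to 56 for swr1Δ, 0 to 0 for fft1Δ, 159 to 185 for snf22Δ, 117 to 153, 334 to 353 and 448 to 487 for hrp1Δ, hrp3Δ and hrp1Δhrp3Δ of B, 54 to 102 and 424 to 478 for those labelled hrp3-CT(hrp1) and hrp1-CT(hrp3), 19 to 359, 99 to 268 and 48 to 192 for hrp1Δhrp3Δ, prf1Δ and the libraries labelled hrp1Δhrp3Δprf1Δ of D, 322 to 389 for hrp3Δ against hrp1Δ, 64 to 81 for hrp1Δhrp3Δ against hrp3Δ, 448 to 523 between the libraries of C and 2 to 82 for prf1Δ against hrp1Δhrp3Δ. Rises opposite coding genes ranged from 189 to 213 in hrp3Δ, 263 to 286 in hrp1Δhrp3Δ and 288 to 330 in the libraries labelled hrp1-CT(hrp3), and members that rose or fell in both experiments under the hrp3Δ label, those passed only through a mutant group included, numbered 107 and 25, against 110 and 54 with every library, without WT replicate 1 of A-b1.

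The difference in the share of counts, in percentage points, ranged in the same way from -0.351 to 0.053 for the libraries labelled fft2Δ, -0.175 to 0.319 for fft3Δ, -0.161 to 0.043 for hrp1Δ and 0.168 to 0.372 for those labelled hrp3Δ of A-b1, -0.190 to 0.014 for mit1Δ, -0.216 to -0.011 for those labelled rrp1Δ, -0.356 to -0.152 for rrp2Δ, -0.142 to 0.063 for irc20Δ, -0.156 to 0.048 for swr1Δ, 0.037 to 0.059 for fft1Δ, 0.042 to 0.090 for snf22Δ, 0.165 to 0.367, 0.309 to 0.511 and 0.441 to 0.643 for hrp1Δ, hrp3Δ and hrp1Δhrp3Δ of B, 0.082 to 0.2 and 0.439 to 0.508 for those labelled hrp3-CT(hrp1) and hrp1-CT(hrp3), and 0.758 to 1.385, 1.055 to 1.225 and 0.664 to 4.703 for hrp1Δhrp3Δ, prf1Δ and the libraries labelled hrp1Δhrp3Δprf1Δ of D. It changed sign as a share of TPM in fft3Δ (0.569) and irc20Δ (0.109), and over entries with no overlapping gene in fft3Δ (0.108), the A-b1 libraries labelled hrp3Δ (-0.029) and prf1Δ (-0.065).

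Replicate numbers were not taken as pairs. In 0 comparisons was every correlation of same-numbered libraries over 0.1 (range -0.6146 to 0.6781), and with the replicate number as a block 23 of 23 counts stayed within 1.5 times, for example 25 higher and 155 lower in the libraries labelled fft2Δ. The smallest libraries held 470206 counts in A-b1 and 3657 in D.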
